A study of Mus musculus with 4 samples.

Results

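The genes described here are the collagen chain genes that could be read in mammary tumours of wild-type (WT) and PAX8PPARg mice given placebo or RU486. They were chosen by name alone: every gene symbol of the form Col, a number, a and a number that had a probe set assigned to that symbol and no other. This gave 36 of the 12393 genes measured, covered by 58 of 20380 probe sets. Where a gene had several probe sets, as 19 collagen genes had, the one with the highest mean signal stood for it.

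Collagens are secreted or membrane-bound proteins whose chains wind into a triple helix. Fibrillar collagens (types I, II, III, V and XI) build the load-bearing fibrils of stroma and cartilage, type IV forms the sheet-like network of basement membranes, and type VI makes beaded filaments at the border of cells and stroma. FACIT collagens such as types IX, XII and XIV sit on the surface of fibrils, and transmembrane collagens such as type XVII are parts of cell junctions. Many of these trimers need chains from different genes. In the mammary gland, fibroblasts make most of the fibrillar chains, while the basal epithelial layer is tied to its basement membrane through integrins and type XVII collagen.

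All mice were female, nulliparous and on the FVB background, and all received 15 mg of MP (Depo-Provera, a progestin) under the skin. They were then given 4 weekly doses of 1 mg DMBA, a carcinogen, by gavage. The transgenic mice carried PAX8PPARg, a fusion of the transcription factor PAX8 with the nuclear receptor PPARg, behind the MMTV promoter, which is active mainly in mammary epithelium; their age-matched WT littermates did not. Pellets with 60 days of release and either placebo or 2.5 mg of RU486, which blocks the progesterone and glucocorticoid receptors, were placed a day after DMBA dosing ended and renewed after 60 days. The 4 groups were thus each genotype with each pellet, and each was measured on 1 Affymetrix array with RNA pooled from 5 mice.

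With 1 array a group, the spread between mice is unknown, no single difference has a test, and whether groups overlap cannot be read. Where 4 values follow each other without labels, they are in this order: WT with placebo, WT with RU486, PAX8PPARg with placebo, PAX8PPARg with RU486. Each value below is the signal of 1 pool, in the linear units of the deposited table, and a difference is the first-named group minus the second of log2(signal + 16), after the median of its array was set to a common value. Signals of different genes come from different probes and were not compared with each other. The tissue was labelled mammary tumour and was excised as mammary gland, so a lower signal from fewer cells of a type cannot be told apart from less RNA per cell. The epithelial genes Krt8 and Epcam were above the background range on all 4 arrays, but Epcam read 6249.1 with placebo and 479.3 with RU486 in WT, and 5563.6 with placebo and 7339.1 with RU486 in PAX8PPARg.

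The arrays had like trimmed means (500.1 to 500.2) but differed in their controls. Probe sets for bacterial transcripts had highest signals of 9.6 with placebo and 18.5 with RU486 in WT, and 8.3 with placebo and 35.3 with RU486 in PAX8PPARg, and a signal at or under that level is called within the background range. Spike-in controls were 1.58 and 2.44 times as bright on the WT and PAX8PPARg RU486 arrays as on the WT placebo array, against 1.01 times on the PAX8PPARg placebo array. The 3' to 5' signal ratio of Gapdh was 2.51 with placebo and 3.33 with RU486 in WT, and 2.89 with placebo and 3.01 with RU486 in PAX8PPARg. The lowest and highest ratios were thus on the 2 WT arrays. Of the collagen genes, 28 were above the background range on all arrays, 4 on none and 4 on 1 to 3 of them.

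The RU486 comparison within each genotype asked how the collagen genes differed between tumours that grew with and without the antagonist. Genes were counted on the log2(signal + 16) scale, which shrinks the differences of dim genes. In WT, 1 of the 36 was at least 2-fold higher under RU486, Col20a1, and 6 were lower by that factor or more, Col5a3, Col9a1, Col9a3, Col13a1, Col17a1 and Col26a1. Of all 12393 genes, 7.46% were higher and 8.88% lower by that factor or more, and the median difference was -0.19 for collagen genes and 0.01 for all genes. In PAX8PPARg, Col9a3 and Col12a1 were at least 2-fold higher under RU486, and 5 were at least 2-fold lower, Col2a1, Col4a6, Col9a1, Col13a1 and Col26a1. There the background was 10.6% higher and 7.08% lower, with medians of 0.23 for collagen genes and 0.13 for all genes, which were 0.10 and 0.00 without centring and 0.06 and 0.02 after quantile normalization. Of all genes that differed 2-fold in PAX8PPARg, 60.0% were higher, against 48.8% without centring and 45.9% after quantile normalization.

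The genotype comparison asked how PAX8PPARg tumours differed from WT tumours under the same pellet. Under placebo, 1 collagen gene was at least 2-fold higher in PAX8PPARg, Col13a1, and 5 were at least 2-fold lower, Col5a1, Col5a2, Col6a3, Col12a1 and Col18a1, against 4.34% and 5.49% of all genes. The share of 2-fold differences that were higher was 44.2% over all genes, 60.7% without centring and 50.9% after quantile normalization. The collagen median was -0.05, 0.14 without centring and 0.09 after quantile normalization, so it had no settled sign. Under RU486, 6 were at least 2-fold higher in PAX8PPARg, Col4a2, Col9a3, Col10a1, Col13a1, Col17a1 and Col26a1, and 5 at least 2-fold lower, Col4a5, Col4a6, Col5a1, Col8a1 and Col12a1, against 10.9% and 10.2% of all genes. Of the 6, Col10a1 and Col13a1 were within the background range on both RU486 arrays, so their differences are no measured sizes, and 3 of the 28 collagen genes above that range on all arrays were at least 2-fold higher. The RU486 difference in PAX8PPARg exceeded that in WT by at least 2-fold for 5 collagen genes and fell short of it by as much for 3, against 15.6% and 12.2% of all genes.

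**Figure D1:**
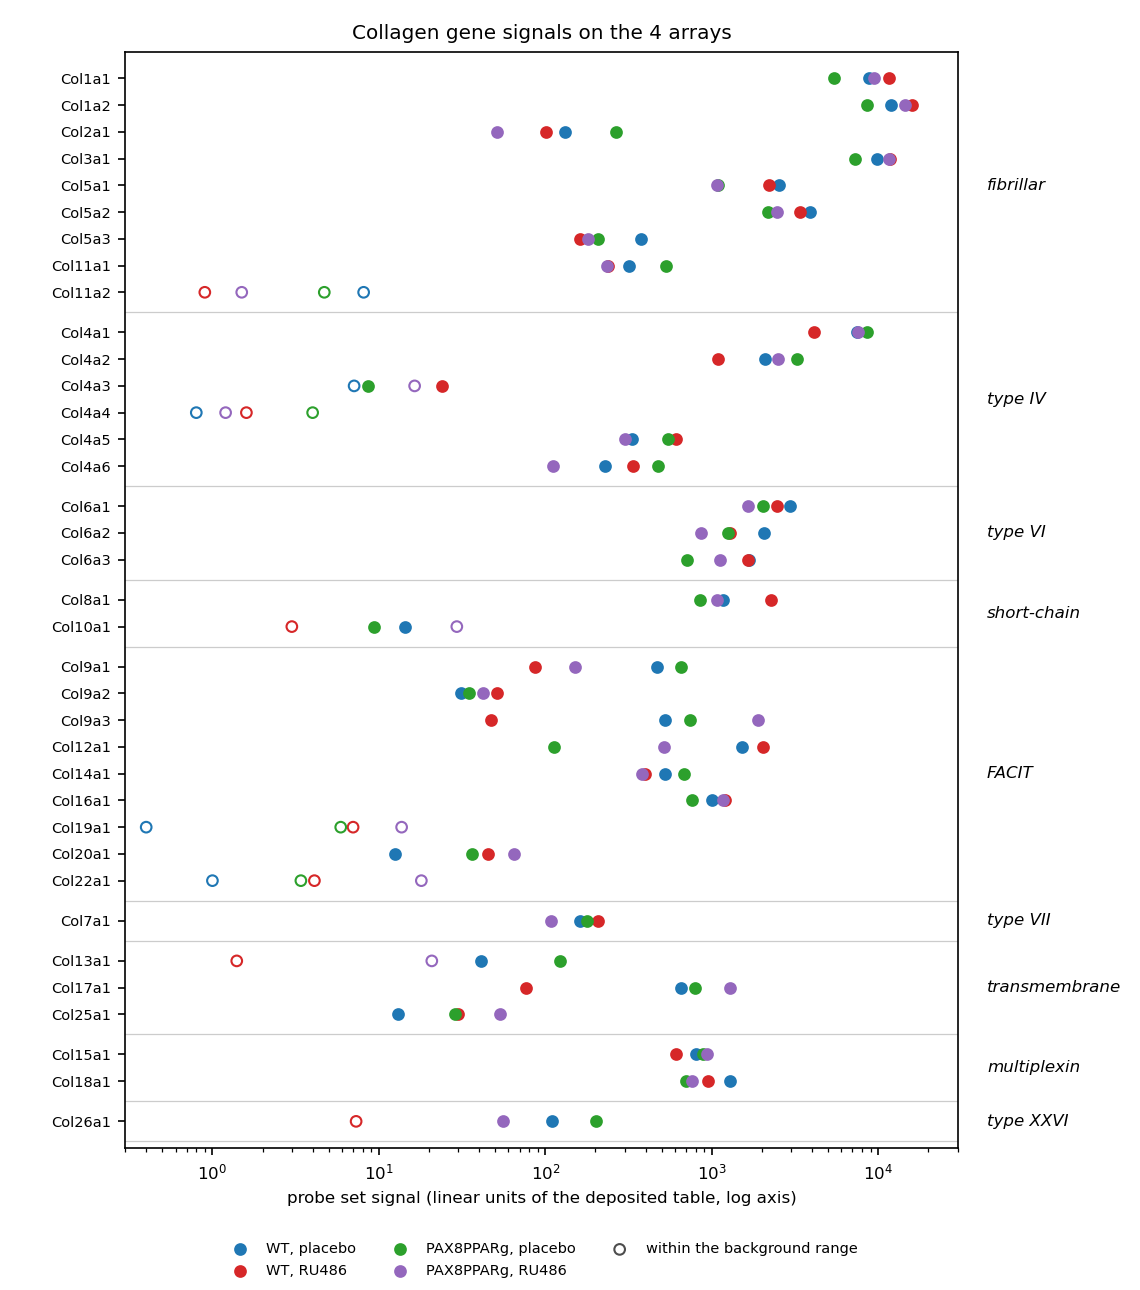
Signal of each of the 36 collagen genes on the 4 arrays, in linear units of the deposited table on a log axis, grouped by collagen class; each point is 1 array (WT placebo blue, WT RU486 red, PAX8PPARg placebo green, PAX8PPARg RU486 purple) and open points lie within the background range of their array. Type VI genes and the fibrillar genes other than Col2a1 and Col11a2 keep close together. Type IV genes above the background range on all arrays span from 2.021-fold (Col4a5) to 4.296-fold (Col4a6). Col9a3 (47.1 to 1883.7), Col12a1 (112.8 to 2034.2) and Col17a1 (76.4 to 1288.9) spread widely. So do Col13a1 (1.4 to 122.1) and Col26a1 (7.3 to 201.5), whose lowest points are within the background range.

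The major fibril chains were lowest in the PAX8PPARg placebo pool by their brightest probe sets. Col1a1, the main chain of type I collagen, read 8855.1 with placebo and 11587.5 with RU486 in WT, and 5461.8 with placebo and 9480.1 with RU486 in PAX8PPARg. Its partner chain Col1a2 read 12012.3, 16041.5, 8523.6 and 14458.9 on the same arrays. Col3a1, whose homotrimers join type I in supple fibrils, read 9872.1, 11785.3, 7261.9 and 11641.5. By these probe sets, the brightest of each gene, the PAX8PPARg placebo pool was lowest and the WT RU486 pool highest for all 3. The second probe set of Col1a2 read 7616.9, 8488.9, 4697.9 and 5594.3, with the same pools lowest and highest. That of Col3a1 read 1879.7, 1311.0, 1226.4 and 936.8, highest in WT with placebo and lowest in PAX8PPARg with RU486.

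Their differences stayed under 2-fold. Col1a1 was higher under RU486 by 0.39 in WT and 0.93 in PAX8PPARg, and Col3a1 by 0.26 and 0.81. Col1a2 was higher by 0.42 in WT, and by 0.89 in PAX8PPARg with centred arrays but by -0.05 after quantile normalization. The second probe set of Col1a1 gave 0.42 and 0.82. That of Col3a1 had the other sign, -0.51 in WT and -0.25 in PAX8PPARg, so the direction of the RU486 difference of Col3a1 depends on the probe set. PAX8PPARg minus WT under placebo was -0.89 for Col1a1, -0.68 for Col1a2 and -0.63 for Col3a1. By the brightest probe sets, the ratio of Col1a2 to Col1a1 within each array, set to 0 on the WT placebo array, moved by at most 0.20 log2. The second probe sets lay further apart, with RU486 minus placebo in PAX8PPARg of 0.82 for Col1a1 and 0.38 for Col1a2.

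The promoters of Col1a2 and Col3a1 are shown as those of major fibril chains that have a RefSeq window. The letters are the RefSeq bases of GRCm38.p6 up to 250 bases before the annotated start that lie outside annotated genes, 5′ to 3′ on the strand of the gene, and capitals mark motifs that were searched on both strands. The motifs were TATAAA, which is found in some core promoters, the CCAAT box, the GC box with the letters GGGCGG, and the half-site TGTTCT, which progesterone, glucocorticoid and androgen receptors can bind. A window counts once for a motif, whatever its number of matches or their overlap. Col1a2 lies at chr6:4505368-4505617 on the plus strand and Col3a1 at chr1:45311288-45311537 on the plus strand.
Col1a2: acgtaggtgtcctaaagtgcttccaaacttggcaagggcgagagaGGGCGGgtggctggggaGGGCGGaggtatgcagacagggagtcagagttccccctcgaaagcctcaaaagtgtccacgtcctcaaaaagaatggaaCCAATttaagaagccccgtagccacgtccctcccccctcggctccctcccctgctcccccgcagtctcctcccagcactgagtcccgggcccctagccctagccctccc
Col3a1: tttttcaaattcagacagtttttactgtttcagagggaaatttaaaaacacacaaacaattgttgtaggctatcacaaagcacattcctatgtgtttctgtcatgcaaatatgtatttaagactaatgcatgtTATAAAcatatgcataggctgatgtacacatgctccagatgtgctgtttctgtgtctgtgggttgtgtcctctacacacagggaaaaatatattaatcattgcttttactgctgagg
The Col1a2 stretch holds a CCAAT box and GC boxes and no TATAAA, and the Col3a1 stretch holds TATAAA and neither of the others. Windows of 300 bases, from 250 before to 50 after a start, were at hand for 27 of the 36 collagen genes. TATAAA was in the windows of 5 genes, CCAAT of 12, GGGCGG of 16 and TGTTCT of 2, while 13.6%, 37.4%, 35.7% and 19.0% of all 32851 windows held them. A match is a string of letters and not a site of binding.

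Type V chains start and thin the fibrils of type I. Col5a1, present in most type V trimers, read 2537.5 with placebo and 2221.5 with RU486 in WT, and 1086.5 with placebo and 1068.7 with RU486 in PAX8PPARg. Both PAX8PPARg pools were thus lower than both WT pools, with PAX8PPARg minus WT of -1.40 under placebo and -1.10 under RU486. The other 2 probe sets of Col5a1 gave -1.43 and -1.55 with placebo, and -1.46 and -1.16 with RU486. Col5a2, its usual partner, read 3879.8, 3390.7, 2189.9 and 2463.9, again with both PAX8PPARg pools the lowest (-1.01 and -0.52). Its second probe set gave -0.69 and 0.17, so the direction under RU486 depends on the probe set. Col5a3, a rarer chain, read 375.4, 160.6, 207.9 and 179.4. Only its WT placebo signal stood high, and RU486 minus placebo was -1.15 in WT and -0.06 in PAX8PPARg.

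The fibrillar chains best known from cartilage had another order of pools. Col2a1, the type II chain, read 130.7 with placebo and 101.2 with RU486 in WT, and 265.7 with placebo and 51.2 with RU486 in PAX8PPARg. Col11a1, which helps to start type II fibrils, read 318.5, 238.9, 528.6 and 233.4. Both were highest in the PAX8PPARg placebo pool and lowest in the PAX8PPARg RU486 pool, with RU486 minus placebo of -1.93 and -0.99 in PAX8PPARg and -0.32 and -0.39 in WT. Col11a2, a further type XI chain, was within the background range on every array. Of 7 cartilage markers measured, 3, 2, 4 and 5 lay within the background range, in the order of arrays given above. Matn1, which is close to specific to cartilage, was in that range on all 4. Their summed signal ran from 883.1 to 1471, most of it from Sox9, which mammary epithelium also expresses, and was lowest on the PAX8PPARg placebo array, where Col2a1 and Col11a1 were highest.

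Of the type IV genes, Col4a1 and Col4a2 shared the sign of their difference in every comparison, as did Col4a5 and Col4a6. Col4a1, a main chain of most basement membranes, read 7449.9 with placebo and 4110.9 with RU486 in WT, and 8608.5 with placebo and 7609.4 with RU486 in PAX8PPARg. Col4a2, which pairs with it, read 2098.3, 1094.5, 3263.6 and 2487.3. The WT RU486 pool was the lowest for both, at -0.85 and -0.93 against WT placebo, and the second probe set of Col4a1 gave -0.97. In PAX8PPARg the same comparison gave -0.04 and -0.26.

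Col4a5 and Col4a6, which form a separate network in some epithelial and smooth muscle basement membranes, had another pattern. Col4a5 read 330.7, 609.8, 547.5 and 301.7 in the same order of arrays, and Col4a6 read 227.2, 336.9, 476.9 and 111.0. Both were higher under RU486 in WT (0.85 and 0.54) and lower under RU486 in PAX8PPARg (-0.69 and -1.82). The second probe set gave 1.24 and -0.63 for Col4a5 and 0.50 and -1.65 for Col4a6. The ratio of Col4a5 to Col4a1 within an array, set to 0 on the WT placebo array, was 1.71 log2 on the WT RU486 array and -0.16 on the PAX8PPARg RU486 array, and that of Col4a6 to Col4a1 was 1.39 and -0.97. The ratio of Col4a6 to Col4a5 was -0.31 with RU486 in WT, and 0.32 with placebo and -0.81 with RU486 in PAX8PPARg, so the pair shared a direction but not a size. Col4a4 was within the background range on every array. Col4a3, its partner in the kidney filter, was above it at 23.8 on the WT RU486 array and 8.6 on the PAX8PPARg placebo array only.

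These genes lie head to head in the genome. The RefSeq windows of Col4a1 and Col4a2 share 78 bases on opposite strands of chromosome 8. Col4a6 and Col4a5 run apart from starts 1343 bases from each other on the X chromosome, and their upstream stretches are shown because these neighbours differed in the same direction in all 4 comparisons. Capitals mark motifs as above. Col4a5 lies at chrX:141475169-141475369 on the plus strand and Col4a6 at chrX:141474096-141474326 on the minus strand.
Col4a5: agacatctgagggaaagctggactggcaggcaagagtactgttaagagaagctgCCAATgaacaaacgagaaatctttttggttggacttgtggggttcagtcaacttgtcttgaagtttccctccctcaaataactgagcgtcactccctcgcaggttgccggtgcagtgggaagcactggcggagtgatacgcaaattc
Col4a6: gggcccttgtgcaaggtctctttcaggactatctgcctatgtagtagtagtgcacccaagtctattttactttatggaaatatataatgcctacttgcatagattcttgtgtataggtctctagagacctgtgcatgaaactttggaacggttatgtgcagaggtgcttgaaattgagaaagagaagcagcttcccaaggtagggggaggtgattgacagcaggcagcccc
The Col4a5 stretch holds 1 CCAAT box, and the Col4a6 stretch holds none of the motifs searched.

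**Figure D2:**
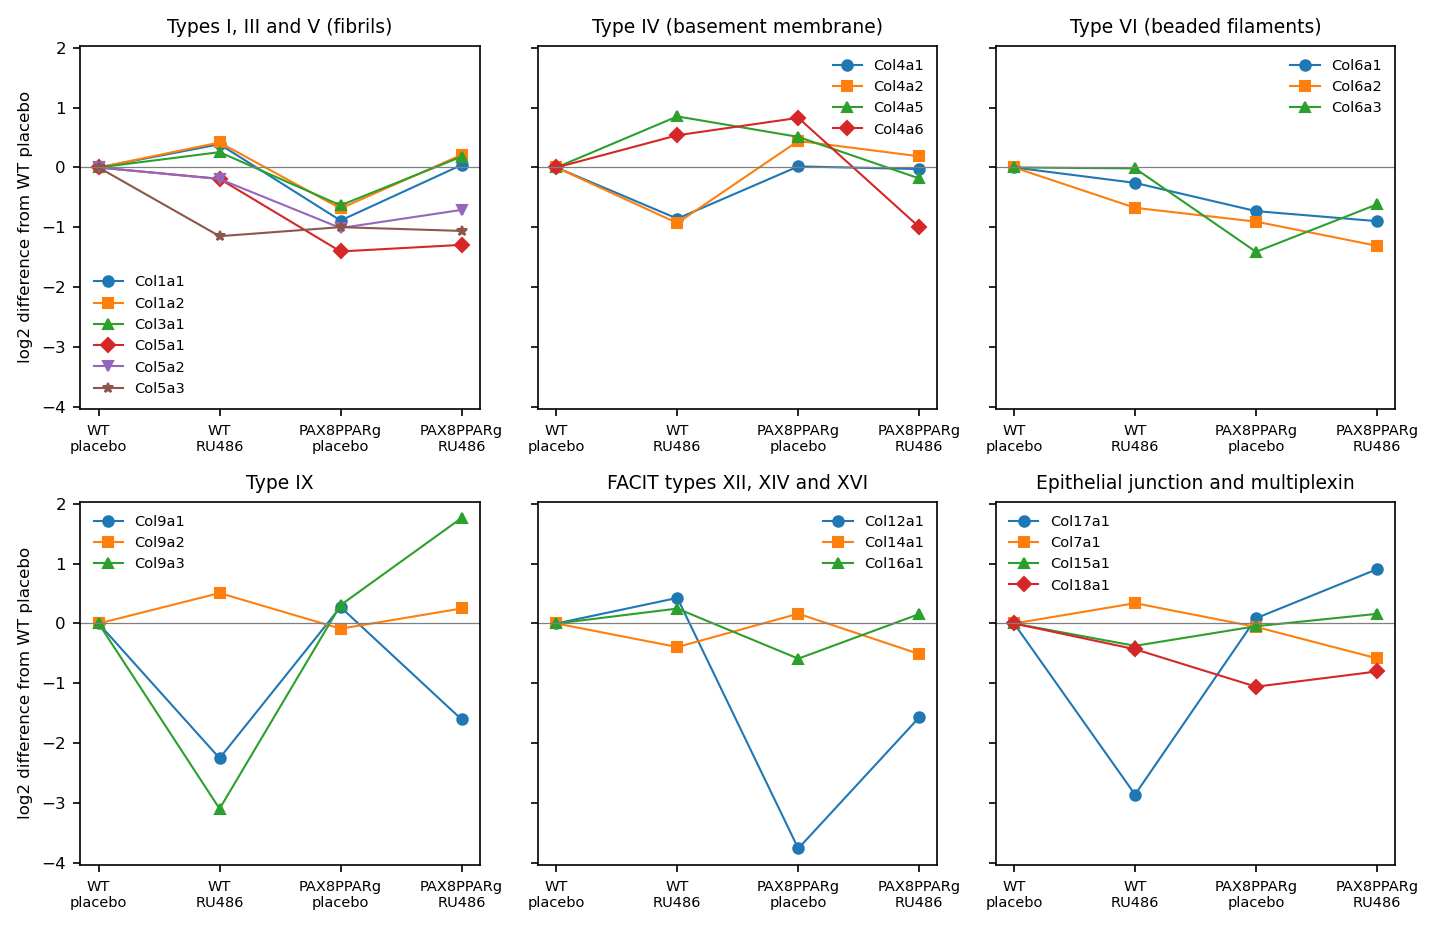
Log2 difference of each array from the WT placebo array for collagen chains grouped by type, with 1 point per gene and array; lines join the points of a gene as a guide to the eye and stand for no course in time. Col4a1 and Col4a2 dip together on the WT RU486 array, Col4a5 and Col4a6 separate from them on the RU486 arrays, and Col9a1 and Col9a3 part on the PAX8PPARg RU486 array.

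Type VI chains were lower in both PAX8PPARg pools. Col6a1 read 2954.3 with placebo and 2468.0 with RU486 in WT, and 2029.1 with placebo and 1644.7 with RU486 in PAX8PPARg. Col6a2, encoded beside it, read 2065.4, 1288.5, 1253.1 and 858.8. Col6a3, the longest chain of the trimer and a product of fibroblasts and adipocytes, read 1668.2, 1650.0, 708.0 and 1126.6. The WT placebo pool was the highest for all 3, and PAX8PPARg minus WT ran from -1.41 to -0.73 under placebo and from -0.64 to -0.60 under RU486. The chains parted in PAX8PPARg, where RU486 minus placebo was -0.17 for Col6a1, -0.40 for Col6a2 and 0.79 for Col6a3. Col8a1, a short-chain collagen of vessel walls and of injured stroma, read 1174.5, 2266.9, 854.7 and 1068.9. It stood high in the WT RU486 pool, with RU486 minus placebo of 0.94 in WT and 0.45 in PAX8PPARg, and its second probe set gave 0.98 and -0.13, so its direction in PAX8PPARg depends on the probe set.

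The FACIT collagens held the largest difference of the family, that of Col9a3 between genotypes under RU486. Col9a3, a chain of type IX collagen, read 522.9 with placebo and 47.1 with RU486 in WT, and 744.3 with placebo and 1883.7 with RU486 in PAX8PPARg. RU486 minus placebo was -3.09 in WT and 1.45 in PAX8PPARg, and a further probe set of the gene gave -2.54 and 1.39. Under RU486, PAX8PPARg minus WT was 4.85, and 4.56 by that probe set. The remaining probe set of Col9a3 was dim, with signals from 0.2 to 13.0.

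The type IX trimer joins 1 chain from each of 3 genes, and these differed from each other. Col9a1 read 471.2 with placebo and 86.4 with RU486 in WT, and 656.7 with placebo and 151.1 with RU486 in PAX8PPARg. Both RU486 pools were lower than both placebo pools, with RU486 minus placebo of -2.25 in WT and -1.88 in PAX8PPARg, and the dimmer probe set gave -0.94 and -0.77. Col9a2 read 31.2, 51.1, 34.7 and 42.4, with differences of 0.51 and 0.34. The ratio of Col9a3 to Col9a1 within an array, set to 0 on the WT placebo array, was -0.84 log2 with RU486 in WT, and 0.03 with placebo and 3.36 with RU486 in PAX8PPARg.

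The upstream stretch of Col9a1 is shown. It was the 1 collagen gene above the background range on all arrays that was at least 2-fold lower under RU486 in both genotypes. Col13a1 and Col26a1 were lower by that factor too, but each was within that range on at least 1 array. The stretch of Col13a1, not shown, holds 1 match to TATAAA and 0 to TGTTCT. The Col9a1 stretch lies at chr1:24177360-24177588 on the plus strand, before the upstream one of its annotated starts, and capitals mark motifs as above.
Col9a1: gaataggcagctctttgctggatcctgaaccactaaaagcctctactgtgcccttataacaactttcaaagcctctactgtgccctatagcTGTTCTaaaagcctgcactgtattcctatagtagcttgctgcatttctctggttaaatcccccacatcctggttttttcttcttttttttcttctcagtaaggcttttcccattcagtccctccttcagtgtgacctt
It holds 1 match to TGTTCT, which was in the windows of 2 of the 27 collagen genes and in 19.0% of all windows. The other collagen gene with a match in its window was Col20a1, whose RU486 differences had the other sign (1.10 and 0.77). RefSeq windows for Col9a3 and Col12a1 were not used here.

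Col12a1, which encodes the chain of type XII collagen on the surface of type I fibrils in tissue under tension, differed most of the family between genotypes under placebo. It read 1510.1 with placebo and 2034.2 with RU486 in WT, and 112.8 with placebo and 519.7 with RU486 in PAX8PPARg. Both PAX8PPARg pools were lower than both WT pools, with PAX8PPARg minus WT of -3.76 under placebo and -1.99 under RU486. RU486 minus placebo was 0.43 in WT and 2.19 in PAX8PPARg. The ratio of Col12a1 to Col1a1 within an array, set to 0 on the WT placebo array, was 0.04 log2 with RU486 in WT, and -2.87 with placebo and -1.61 with RU486 in PAX8PPARg. The gene had 1 probe set, so no second reading was at hand.

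Other FACIT genes differed little or were dim. Col14a1, a fibril-surface chain related to type XII, read 526.4 with placebo and 396.6 with RU486 in WT, and 677.0 with placebo and 380.3 with RU486 in PAX8PPARg, and was lower under RU486 in both genotypes (-0.39 and -0.67). Col16a1 read 1005.1, 1196.8, 759.5 and 1168.7, with RU486 differences of 0.25 and 0.74. Both stayed within 2-fold in every comparison. Col20a1 read 12.5, 45.1, 36.2 and 65.2, close to the background range on each array, and the single 2-fold higher value in WT (1.10) was 0.51 with a pseudocount of 64 and 0.38 with the mean of its probe sets. Col19a1 and Col22a1 were within the background range on all 4 arrays, at up to 13.7 and 18.0.

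Transmembrane and anchoring collagens of epithelia were read next. Col17a1, the hemidesmosome collagen that holds basal epithelial cells to the basement membrane, read 653.6 with placebo and 76.4 with RU486 in WT, and 795.6 with placebo and 1288.9 with RU486 in PAX8PPARg. The WT RU486 pool was far below the other pools, with RU486 minus placebo of -2.86 in WT and 0.82 in PAX8PPARg. Under placebo the genotypes differed by 0.09, and under RU486 by 3.76. The summed signal of 7 basal epithelial markers was 14560 with placebo and 4646 with RU486 in WT, and 8860 with placebo and 22530 with RU486 in PAX8PPARg. Col17a1 and Col9a3 were lowest and highest on the same arrays as that sum, and the part of basal cell content in their differences was not tested. Krt5, a keratin of basal cells, read 2082.0, 221.9, 1278.0 and 5637.0, and Krt14, Krt15 and Krt17 were lowest and highest on the same arrays. The other markers of this list did not share both extremes of the sum. Trp63 read 1186.1, 92.0, 1906.3 and 1824.1, highest with placebo in PAX8PPARg. Itgb4 read 911.8, 422.1, 180.9 and 606.5, highest with placebo in WT and lowest with placebo in PAX8PPARg. The integrin gene Itga6, whose product binds laminin at the same junction but is also made by endothelium, read 3727.9, 3627.7, 3229.6 and 2872.6.

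The upstream stretch of Col17a1, at chr19:47692043-47692292 on the minus strand, is shown because the signals of the gene spread widely over the pools.
Col17a1: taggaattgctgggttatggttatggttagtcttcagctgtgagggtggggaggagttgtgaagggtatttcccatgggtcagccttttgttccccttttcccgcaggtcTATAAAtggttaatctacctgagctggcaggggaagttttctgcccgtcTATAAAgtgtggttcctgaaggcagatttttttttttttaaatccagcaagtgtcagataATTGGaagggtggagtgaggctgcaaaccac
It holds 2 matches to TATAAA and 1 CCAAT box. Col7a1, which forms the anchoring fibrils below the same junction, did not have the span of Col17a1. It read 161.7 with placebo and 208.7 with RU486 in WT, and 178.9 with placebo and 107.5 with RU486 in PAX8PPARg, with RU486 minus placebo of 0.34 in WT and -0.52 in PAX8PPARg. Col13a1, a transmembrane collagen of adhesive junctions, read 40.8, 1.4, 122.1 and 20.8. Both RU486 values were within the background range, so it was at least 2.21-fold lower under RU486 in WT and at least 3.46-fold lower in PAX8PPARg. Col25a1, a transmembrane collagen known from neurons, read 13.0, 29.8, 28.8 and 53.7, within 2-fold in each comparison.

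The multiplexins Col15a1 and Col18a1 lie at the outer face of basement membranes, and type XVIII is the source of endostatin. Col15a1 read 799.8 with placebo and 613.4 with RU486 in WT, and 885.6 with placebo and 932.5 with RU486 in PAX8PPARg, with no comparison reaching 2-fold. Col18a1 read 1292.0, 954.2, 702.0 and 764.8, and PAX8PPARg minus WT under placebo was -1.06, or -1.77 with its second probe set. Summed signals of 8 endothelial markers were 2484, 1659, 4500 and 1793 in the same order, so the PAX8PPARg placebo pool was highest for endothelial markers and lowest for Col18a1. Col26a1, a little-studied collagen-like gene, read 109.2, 7.3, 201.5 and 55.7. It was at least 5.9-fold lower under RU486 in WT, where the RU486 value was within the background range, and differed by -1.47 log2 in PAX8PPARg. Col10a1, the chain of growth-plate cartilage, read 14.4, 3.0, 9.3 and 29.4 and was within the background range on both RU486 arrays.

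The RU486 differences of WT and PAX8PPARg share no array and were set side by side. Of the 36 collagen genes, 12 were higher under RU486 in both genotypes, 12 lower in both, 4 higher in WT and lower in PAX8PPARg, and 8 lower in WT and higher in PAX8PPARg. Over all 12393 genes these numbers were 3880, 2611, 2413 and 3489. Col9a1, Col13a1 and Col26a1 were at least 2-fold lower in both, as were 184 of all genes, and Col9a3 was at least 2-fold different in opposite directions, as were 385 of all genes. The interaction contrast, the RU486 difference in PAX8PPARg minus that in WT, was 4.55 for Col9a3, 3.68 for Col17a1, 1.76 for Col12a1 and 1.08 for Col5a3. It was -2.36 for Col4a6, -1.61 for Col2a1 and -1.55 for Col4a5, and its median was 0.39 over collagen genes and 0.15 over all genes. These medians were 0.26 and 0.02 without centring and 0.13 and 0.04 after quantile normalization. For Col1a1, Col1a2 and Col3a1 it was 0.54, 0.48 and 0.56 with centred arrays and -0.01, -0.19 and -0.06 after quantile normalization.

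**Figure D3:**
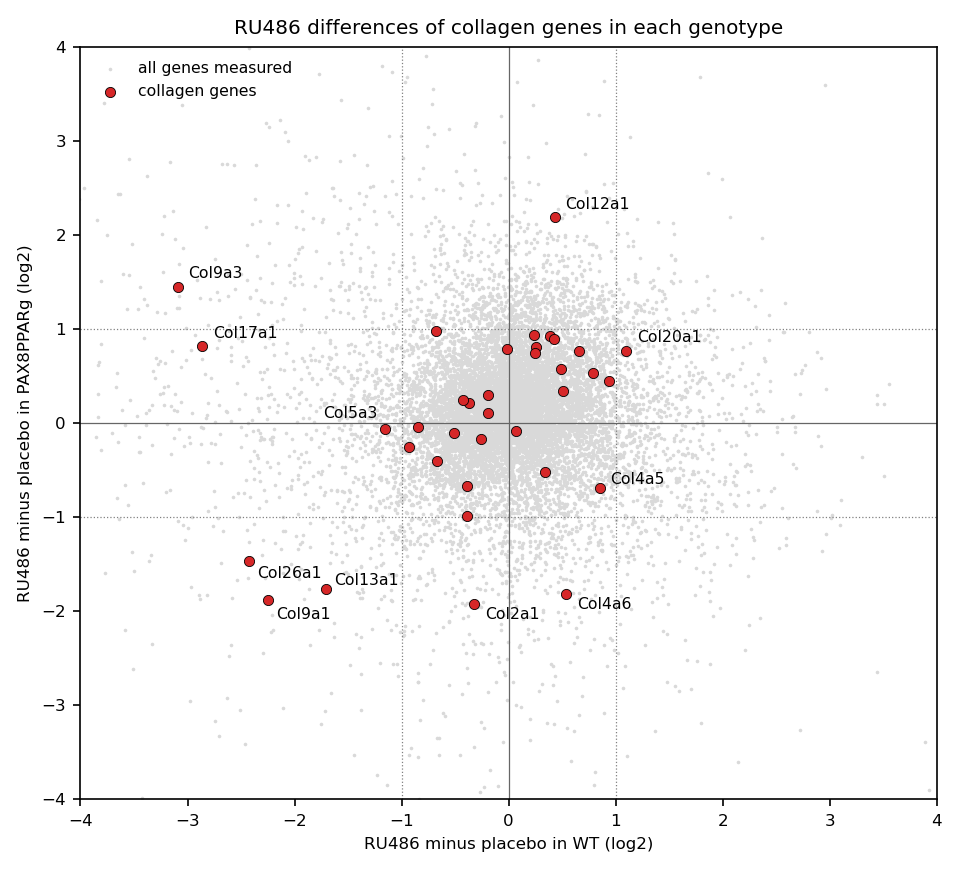
RU486 minus placebo in WT (x axis) against the same difference in PAX8PPARg (y axis), both in log2 units, for all genes measured (grey) and the collagen genes (red); dotted lines mark 2-fold and axes end at 4 log2, so a few grey points lie outside. Col9a1 (-2.25, -1.88) lies low in both genotypes, and Col9a3 (-3.09, 1.45) and Col17a1 (-2.86, 0.82) lie low in WT and high in PAX8PPARg.

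The genotype differences under placebo and under RU486 share no array either. Of the 28 collagen genes above the background range on all arrays, 14 were lower in PAX8PPARg under both pellets, 7 were higher under both and 7 changed sign. Of all 9023 genes above that range on all arrays, 32.5% were lower under both pellets and 17.7% higher under both. The shares lower under both were 42.9% of collagen genes and 21.3% of all genes without centring, and 46.4% and 25.2% after quantile normalization. Those lower in both included Col1a1, Col1a2, Col3a1, Col5a1, Col5a2, all 3 type VI chains, Col8a1, Col12a1 and Col18a1. Of these, Col5a1 and Col12a1 were at least 2-fold lower under both pellets, as were 105 of the 9023 genes, and after quantile normalization 1 collagen gene was. The directions of single genes depend on the scaling too, since without centring Col7a1 and Col9a2 were higher under placebo (0.13 and 0.10), and after quantile normalization Col16a1 was higher under RU486 (0.01).

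**Figure D4:**
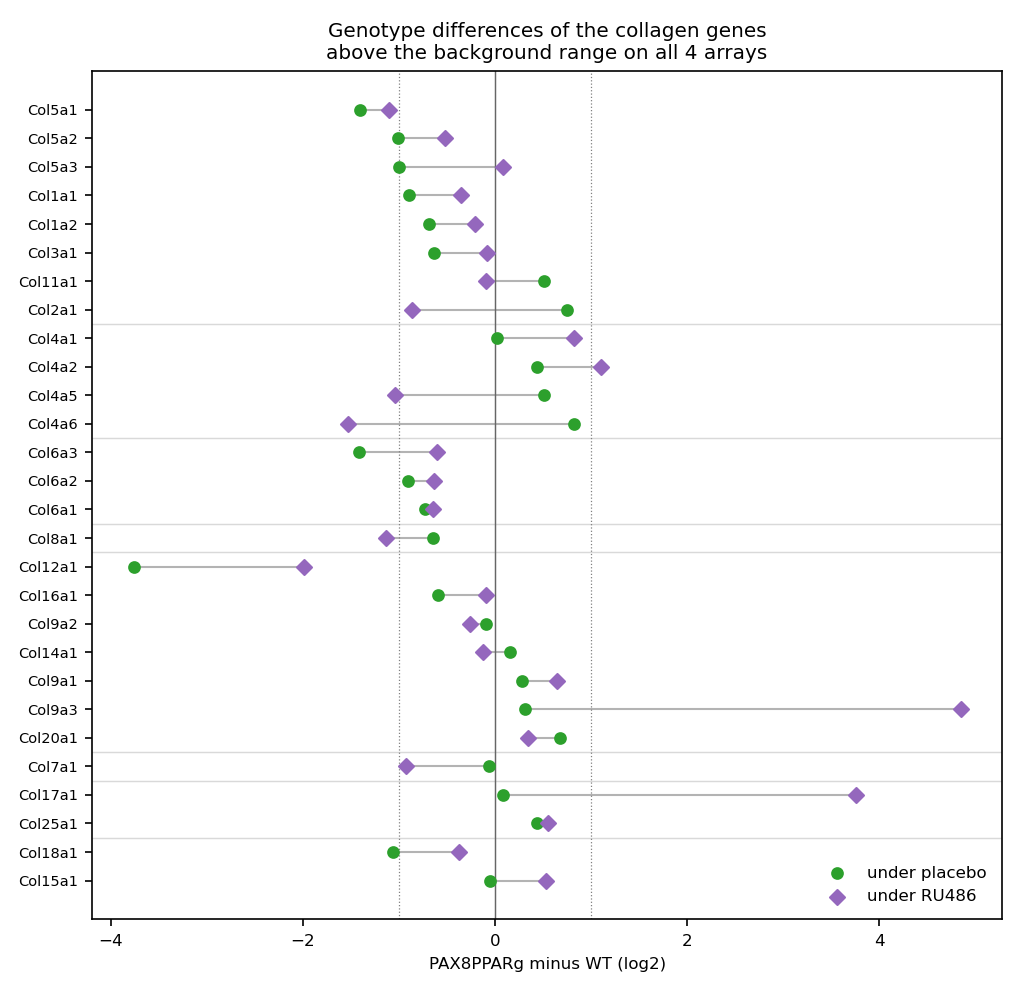
PAX8PPARg minus WT in log2 units under placebo (green circles) and under RU486 (purple diamonds) for the 28 collagen genes above the background range on all 4 arrays, each value from 1 pair of arrays; grey bars join the values of a gene and dotted lines mark 2-fold. Col12a1 (-3.76, -1.99) lies lowest, type V and VI chains lie below 0 under placebo, and Col9a3 (4.85) and Col17a1 (3.76) lie far right under RU486 only.

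A test was possible only in an additive limma fit over the 4 arrays, in which each genotype serves as a replicate for treatment and each treatment as a replicate for genotype, with 1 residual degree of freedom. That residual is the interaction contrast, so the SEs and p-values do not measure the spread between mice or between arrays of a group. It was run on the 6197 genes at or above the median level, of which 23 were collagen genes. After Benjamini-Hochberg adjustment 0 genes passed 0.05 for treatment (0%) and 0 for genotype (0%), and at an unadjusted p under 0.05 there were 278 and 274 genes. Among the collagen genes, limma gave 1 unadjusted p under 0.05 for treatment, Col9a1, with an effect of -2.06 log2 (SE 0.30) and an adjusted p of 0.97. For genotype limma gave 4, Col12a1 at -2.88 log2 (SE 0.52), Col5a1 (-1.25, SE 0.29), Col6a3 (-1.01, SE 0.35) and Col8a1 (-0.89, SE 0.31), each with an adjusted p of 0.938. For Col9a3 and Col17a1, whose RU486 differences had opposite signs, the treatment effects were -0.82 and -1.02 with SEs of 1.18 and 0.97.

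Genes that make, bind and cleave collagen were read from lists. Collagen chains are hydroxylated and folded in the endoplasmic reticulum, trimmed of their propeptides outside the cell and cross-linked by lysyl oxidases. Of 24 such genes measured out of 32 listed, 2 were higher and 2 lower by at least 2-fold under RU486 in WT (median 0.14), and 3 and 0 in PAX8PPARg (median 0.22, or 0.09 without centring). Of all genes, 7.46% were higher and 8.88% lower by that factor in WT, and 10.6% and 7.08% in PAX8PPARg. Pcolce, an enhancer of propeptide removal, read 830.0 with placebo and 2444.2 with RU486 in WT, and 454.9 with placebo and 1188.6 with RU486 in PAX8PPARg. It was higher under RU486 in both genotypes, by 1.54 and 1.49. Its relative Pcolce2 was higher by 1.59 in WT and 0.30 in PAX8PPARg. Loxl4, a lysyl oxidase, read 125.0, 154.1, 47.8 and 826.7, so that its RU486 difference was 0.27 in WT and 3.86 in PAX8PPARg.

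The genotype difference of this list under placebo ran mainly one way. Of the 24 genes, 23 were lower in PAX8PPARg, 7 of them by at least 2-fold, and the median was -0.60 against -0.15 for all genes. Of all 12393 genes, 7939 were lower, and 680 (5.49%) by at least 2-fold. Without centring 19 of the list were lower (median -0.41), as were 5596 of all genes (median 0.04). The 2-fold lower genes included the prolyl hydroxylase subunit P4ha2 (-1.39), Loxl4 (-1.33), the procollagen C-proteinase Bmp1 (-1.26), Loxl3 (-1.24) and Lox (-1.11). The chaperone Serpinh1, specific to collagen, differed by -0.53, within 2-fold. Under RU486 8 were lower and 2 higher by at least 2-fold (median -0.48), against 10.2% and 10.9% of all genes.

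Of 19 collagen-binding matrix genes, 3 were at least 2-fold higher and 0 lower under RU486 in WT (median 0.00), against 7.46% and 8.88% of all genes. In PAX8PPARg 3 were higher and 4 lower, against 10.6% and 7.08% of all genes. The list median there was 0.52, or 0.07 after quantile normalization and 0.25 with the mean of probe sets. Fn1, the fibronectin gene, read 5744.6 with placebo and 15118.5 with RU486 in WT, and 2904.3 with placebo and 8308.0 with RU486 in PAX8PPARg, and was higher under RU486 by 1.39 and 1.64. Tnc, an adhesion-modulating glycoprotein of tumour stroma, read 6177.8, 6204.1, 824.2 and 5411.5. The PAX8PPARg placebo pool was the lowest for Tnc, as it was for Col12a1. Under placebo 5 of the 19 were lower and 3 higher in PAX8PPARg by at least 2-fold (median -0.41), and under RU486 5 and 1 (median -0.53). Of all genes, 5.49% were lower and 4.34% higher under placebo, and 10.2% and 10.9% under RU486.

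Of 7 collagen receptors measured, 3 were at least 2-fold higher and 2 lower under RU486 in WT (median 0.31), against 7.46% and 8.88% of all genes. In PAX8PPARg 0 were higher and 1 lower (median -0.12), against 10.6% and 7.08%. The receptor kinase Ddr2, a mesenchymal gene, differed by 2.10 under RU486 in WT and by -0.56 in PAX8PPARg, while its epithelial relative Ddr1 differed by -1.05 and 0.32. Cd36, a receptor of collagen, thrombospondin and fatty acids that adipocytes express highly, had the largest RU486 difference of the 7, with signals of 661.1, 271.7, 3465.3 and 221.1 and RU486 differences of -1.23 in WT and -3.74 in PAX8PPARg. Lair1, an inhibitory collagen receptor of leukocytes, was higher by 2.27 in WT, where the summed signal of 7 macrophage markers was 9873 under placebo and 38670 under RU486. On the PAX8PPARg arrays that sum was 10400 and 9742, and Lair1 differed by -0.51. The part of macrophage content in these differences was not tested. Between genotypes, 1 receptor was at least 2-fold higher and 0 lower under placebo (median -0.06, or 0.13 without centring and 0.11 after quantile normalization), and 1 and 3 under RU486 (median -0.45). Of all genes, 4.34% were higher and 5.49% lower under placebo, and 10.9% and 10.2% under RU486.

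Of 10 collagen-cleaving proteases, 1 was at least 2-fold higher and 1 lower under RU486 in WT (median 0.37), and 4 and 0 in PAX8PPARg (median 0.61). Of those 4, Mmp1b and Mmp8 lay in the background range with placebo and with RU486 in PAX8PPARg, so their differences are no measured sizes. Of all genes, 7.46% were higher and 8.88% lower by 2-fold or more in WT, and 10.6% and 7.08% in PAX8PPARg. Mmp13, a collagenase, read 2356.6 with placebo and 48.7 with RU486 in WT, and 5.4 with placebo and 1175.2 with RU486 in PAX8PPARg. It differed by -5.20 log2 under RU486 in WT and was at least 142-fold higher under RU486 in PAX8PPARg, where the placebo value was within the background range. Mmp9, a gelatinase, was higher by 0.84 in WT and 3.27 in PAX8PPARg. Under placebo 9 of the 10 were lower in PAX8PPARg, 2 by at least 2-fold (median -0.43), as were 7939 of all 12393 genes. Without centring these were 7 (median -0.24) and 5596, and after quantile normalization 8 and 6395. Among the 9, Mmp1a (0.2 and 0.2) and Mmp1b (2.2 and 0.4) were within the background range on the WT and PAX8PPARg placebo arrays. Under RU486 1 was at least 2-fold higher and 1 lower (median -0.26). Of all genes, 5.49% were at least 2-fold lower under placebo, and 10.9% were higher and 10.2% lower under RU486.

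**Figure D5:**
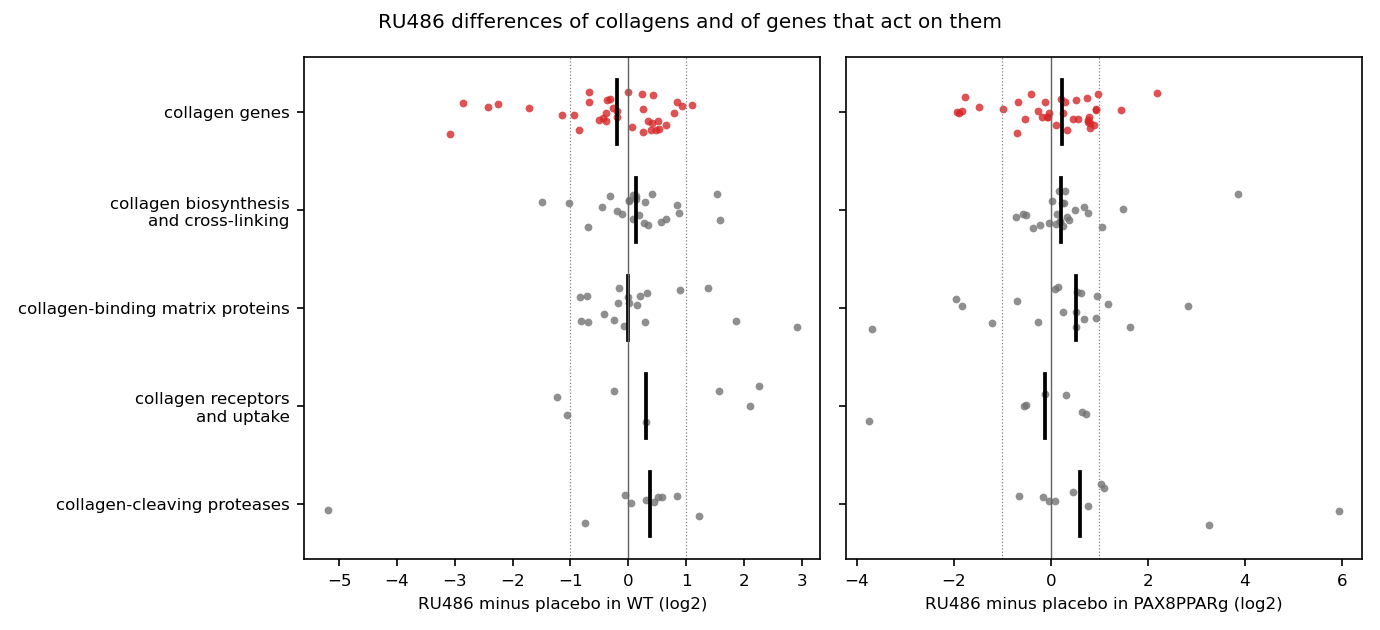
RU486 minus placebo in log2 units in WT (left) and PAX8PPARg (right) for the collagen genes (red) and the lists of genes that act on collagen (grey); each point is 1 gene, points are spread vertically for sight only, black bars are list medians and dotted lines mark 2-fold. The medians of the collagen genes lie at -0.19 and 0.23, and single genes such as Mmp13 in WT (-5.20) and Loxl4 in PAX8PPARg (3.86) lie far from their lists' medians. The Mmp13 point in PAX8PPARg rests on a placebo signal within the background range and is no exact size.

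Markers of the cell types in the tissue differed between the pools as well, and the values of those most tied to collagen are given here. The summed signal of 12 fibroblast markers was 14600 with placebo and 20390 with RU486 in WT, and 10700 with placebo and 9068 with RU486 in PAX8PPARg, with 0 of them within the background range on any array. S100a4, which macrophages also express, read 3108.9, 11024.7, 1177.3 and 1995.2, and the other 11 summed to 11490, 9367, 9525 and 7073. By single markers, 2 of the 12 were higher and 3 lower by at least 2-fold under RU486 in WT (median -0.24). In PAX8PPARg 0 were higher and 2 lower (median -0.32). Of all genes, 7.46% were higher and 8.88% lower in WT, and 10.6% and 7.08% in PAX8PPARg. Between genotypes, 0 were higher and 2 lower under placebo, against 4.34% and 5.49% of all genes. Under RU486 0 were higher and 3 lower, against 10.9% and 10.2%. The summed signal of 6 white adipocyte markers was 9079, 3653, 21900 and 3489, highest where Col1a1, Col1a2, Col3a1 and Col12a1 were lowest. Pericyte markers (5) summed to 3225, 1643, 3832 and 3056, and smooth muscle markers (5) to 9113, 3285, 10390 and 5176. Both sums were lowest on the WT RU486 array like Col4a1 and Col4a2. So were the endothelial (1659), luminal epithelial (6059), basal epithelial (4646) and Schwann cell (433.9) sums. The pericyte, smooth muscle, endothelial (4500) and white adipocyte sums were highest with placebo in PAX8PPARg, as both genes were. Not every pericyte or smooth muscle marker was lowest on the WT RU486 array. Cspg4 was lowest in WT with placebo (75.4), Cnn1 in PAX8PPARg with RU486 (132.4) and Des in PAX8PPARg with placebo (92.8). Luminal epithelial markers (8) summed to 33790, 6059, 30370 and 33570. Skeletal muscle markers (5) summed to 4346, 2822, 668.8 and 867.8, lower on both PAX8PPARg arrays like Col12a1. Schwann cell markers (3 of 5 measured) summed to 1291, 433.9, 1254 and 1178, but did not move together. Sox10 read 1051.7, 106.3, 973.6 and 976.6, and Mbp read 204.8, 109.6, 260.1 and 180.6. S100b went the other way in WT, at 34.3, 218.0, 20.5 and 21.3. Bone markers (3 of 6 measured) summed to at most 104.7. The part of these cell types in the collagen differences was not tested.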

How the data were processed

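The values were probe set signals of the unit intensity on a linear scale, 1 per probe set and array, used as the authors deposited them. They were computed by a method not given in the sources used here, and every array had a 2% trimmed mean of 500.1 or 500.2, so they share a scale. No detection calls were used. Of 22690 probe sets, 64 were controls, and 20380 of the others had exactly 1 gene symbol in the platform annotation, 691 several and 1555 none.

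Differences were taken on log2(signal + 16), after the median of the non-control probe sets was set to a common value on all arrays. Centring changes the median of all genes by up to 0.19 log2. Each gene was read from its probe set with the highest mean over the arrays. A signal at or under the highest bacterial control (27 probe sets) of its array was called within the background range, and a fold against such a value is given as at least the ratio of the brighter signal to that control level. Differences between single arrays have no test and were counted at 2-fold, without a filter on level. The additive models were fitted with limma 3.58.1 in R 4.3.3. The fitting code was run on simulated data with independent noise and no interaction, which checks the code and not its use on these arrays. Other steps used Python 3.11.15, numpy 2.4.6 and pandas 2.3.3. The alternatives were a pseudocount of 1 or 64, no centring, quantile normalization, the mean of a gene's probe sets, and a level filter at the median of all genes (none in the limma fits).

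The collagen genes, the class lists, the lists of genes that make, bind, take up or cleave collagen and the cell type markers were chosen with earlier results of these data known. By rule, any collagen gene could be named. From the other lists, any gene of collagen biosynthesis and any cell type marker could be named, and otherwise the 2 genes with the largest positive and negative RU486 difference in each genotype. Promoter windows came from RefSeq on GRCm38.p6.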

Additional observations from a re-analysis of the deposited data

Results flagged for a closer look

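For 5 collagen genes the RU486 difference had opposite signs in the genotypes and the gap between them was at least 1 log2. Each rests on 1 array per group, so the difference was not tested. RU486 minus placebo in PAX8PPARg minus that in WT was 4.55 for Col9a3 and 3.68 for Col17a1, both lower under RU486 in WT and higher in PAX8PPARg. It was -1.55 for Col4a5 and -2.36 for Col4a6, both higher under RU486 in WT and lower in PAX8PPARg. For Col10a1 it was 1.65, but both RU486 signals of that gene were within the background range.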

How the results depend on the processing

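All 39 differences of single collagen genes past 2-fold kept their sign under the alternatives, in 195 of 195 values, and 170 of these stayed past 2-fold. Keeping the sign is a weak check, since the differences were chosen for their size. Several alternatives can move them only a little, as centring does by at most 0.19 log2. Of the 39, 25 stayed past 2-fold under every alternative. The counts depended on the pseudocount. With 1, under RU486 5 collagen genes were at least 2-fold higher in WT, 7 higher and 8 lower in PAX8PPARg, 4 were higher in PAX8PPARg under placebo, and the interaction contrast had 8 higher and 5 lower. Over all genes the shares in that order were 14.6%, 18.2% and 10.4%, 9.04%, and 21.9% and 16.7%. With 64, the collagen counts were 0 higher in WT under RU486, 0 higher and 3 lower between genotypes under placebo, 3 higher under RU486, and 3 higher for the interaction. The shares of all genes were then 3.95%, 2.35% and 3.08%, 5.87%, and 9.05%. Without centring, 2 collagen genes were higher and 3 lower in PAX8PPARg under placebo, against 6.0% and 3.89% of all genes. After quantile normalization 3 were lower under placebo and 2 under RU486, against 4.6% and 10.1%. With the level filter, which left 23 collagen genes, 0 were higher in WT under RU486, 2 lower in PAX8PPARg under RU486, and between genotypes 0 were higher under placebo (median -0.63) and 3 higher under RU486. Of all genes passing that filter, the shares in that order were 5.5%, 5.15%, 1.89% and 7.23%. The limma fits called 0 collagen genes under every alternative run, with 0 to 5 at an unadjusted p under 0.05. No paired analysis was possible because each group has 1 array.

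The main limit is the single pool per group, which leaves out the spread between mice and between hybridisations. Signals near the bacterial controls, as those of Col10a1, Col13a1, Col19a1, Col20a1 and Col22a1, have no exact fold, and the background range was widest on the PAX8PPARg RU486 array.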
